A study of Mus musculus with 4 samples.

Results

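The mouse mitochondrial genome is a small circle that encodes 13 proteins, 2 ribosomal RNAs (rRNAs) and 22 transfer RNAs (tRNAs). All genes placed on this chromosome in the count files were taken, which gave 37 of the 50600 genes counted. The proteins are core subunits of the respiratory chain and ATP synthase, and the rRNAs and tRNAs serve the mitochondrial ribosome that makes them. Both strands are copied into long precursors, in which tRNAs stand between most of the other genes. RNase P and RNase Z cut out the tRNAs and so release the other RNAs, and most mRNAs then receive short poly(A) tails. Most respiratory chain subunits are nuclear genes, so each complex other than complex II joins products of both genomes. Regulatory T cells hold immune responses in check under the direction of the transcription factor Foxp3, and their respiratory chain is known to be needed for suppression.

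RNA was sequenced from regulatory T cells, described as primary cells, of C57BL/6NJ mice. The 4 libraries, labelled biological replicates 1 to 4, form a single group with no control, so no comparison between conditions can be made. Sex was not collected, age was given as unknown, and every library cites the same donor record. Whether different mice or separate cultures gave each of the 4 samples is not stated, so each p-value measures only the spread between these libraries, which may in part be technical. The assay is called total RNA-seq, while the title of the attached library protocol speaks of poly(A)+ RNA. A protocol for differentiating CD4+ T cells is attached too, and names inside the files mention activation, sorting and 72 h.

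Library totals ran from 32648138 counts (replicate 4) to 94983494 counts (replicate 3), with 46044354 in replicate 1 and 72147632 in replicate 2. Foxp3 (433 to 495 TPM, a read share corrected for gene length), Il2ra, Ctla4, Cd3e and Cd4 were present in every library. Of 14 markers of other blood cells, only Adgre1 reached 1 TPM in every library, 5 had no count, and their summed level was 2.20 to 3.56 TPM. The shared donor record goes against 2 genes. In the order of replicates 1 to 4, Xist measured 312, 331, 0.539 and 2.38 TPM and Y-linked Ddx3y measured 0.0664, 0.0264, 26.0 and 31.2 TPM. By these genes replicates 1 and 2 came from females and replicates 3 and 4 from males, so a single mouse cannot have given all 4. The spread between libraries thus includes a difference of sex. Gm42418, a locus with ribosomal RNA sequence, fell from 11891 TPM in replicate 1 to 4335, 2980 and 1555 TPM in the others.

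The first question was how much of each mitochondrial gene could be counted at all, because parts of this genome have near-identical copies in the nucleus. The count file headers record no option for reads that align to several places or overlap several genes. By default featureCounts leaves uncounted the pairs that align to several places, and those that overlap several genes with equally many of their reads. Nuclear chromosome 1 carries 7 pseudogenes that align in order to a single stretch of the mitochondrial genome, chrM:6381-11042 (mm10, plus strand), at chr1:24611535-24616197 on the minus strand. The 7 alignments cover 4149 bases with 7 mismatches, and 5 of the 7 pseudogenes have none. The stretch begins inside mt-Co1, holds 6 whole protein genes and 5 whole tRNA genes, and ends inside mt-Nd4. The sequences below, taken from the GENCODE M21 transcripts (GRCm38, the same assembly as mm10), show the start of mt-Co2 beside its copy Gm28661, which are identical, and the start of mt-Nd3 beside its copy Gm28438. Capitals mark the bases that differ.
mt-Co2, chrM:7013-7072, plus strand: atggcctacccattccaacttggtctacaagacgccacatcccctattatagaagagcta
Gm28661, chr1:24615506-24615565, minus strand: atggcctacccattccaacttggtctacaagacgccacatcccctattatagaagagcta
mt-Nd3, chrM:9459-9518, plus strand: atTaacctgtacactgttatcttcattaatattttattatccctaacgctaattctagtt
Gm28438, chr1:24613060-24613119, minus strand: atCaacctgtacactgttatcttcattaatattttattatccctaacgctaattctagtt

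The other 6 mismatches lie at the edge of the copied stretch, in mt-Co1. They are shown beside the copy Gm29216, together with a stretch of mt-Co1 beside a more diverged, full-length copy on chromosome 2, Gm13340. This second copy differed from mt-Co1 at 37 of 1545 aligned bases, 4 of them in the 60 bases shown. Capitals again mark differences within each pair.
mt-Co1 beside Gm29216, chrM:6381-6440, plus strand: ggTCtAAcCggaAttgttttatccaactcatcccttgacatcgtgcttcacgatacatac
Gm29216, chr1:24616138-24616197, minus strand: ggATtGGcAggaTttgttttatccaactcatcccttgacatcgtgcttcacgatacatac
mt-Co1 beside Gm13340, chrM:5787-5846, plus strand: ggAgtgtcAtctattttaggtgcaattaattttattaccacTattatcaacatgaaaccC
Gm13340, chr2:22589129-22589188, minus strand: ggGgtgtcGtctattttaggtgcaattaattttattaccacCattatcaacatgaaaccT

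Each gene was cut into overlapping windows of 100 bases, and a window was called shared when it occurred exactly in an annotated nuclear transcript. By this measure 99.5% of mt-Co2, 99.5% of mt-Atp6, 99.9% of mt-Co3, 97.6% of mt-Nd3 and 98.5% of mt-Nd4l was shared. The share was 60.8% for mt-Nd4, 30.8% for mt-Co1 and 3.19% for mt-Nd2. It was 0% for mt-Nd1, mt-Nd5, mt-Nd6, mt-Cytb, both rRNAs and mt-Atp8. The gene mt-Atp8 starts in an interval of 233 bases between 2 pseudogenes, and the matching interval on chromosome 1 is also 233 bases long but is not annotated, so whether it copies mt-Atp8 was not checked. No genome sequence was used, so nuclear copies outside annotated transcripts were not seen. The plot of shared windows along the mitochondrial genome shows the high shares between mt-Co1 and mt-Nd4, broken at mt-Atp8, and low shares outside that stretch. With 50-base windows those low shares were 8.19% in mt-Nd2, 7.61% in mt-Nd5 and 1.04% in mt-Rnr2.

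**Figure D1:**
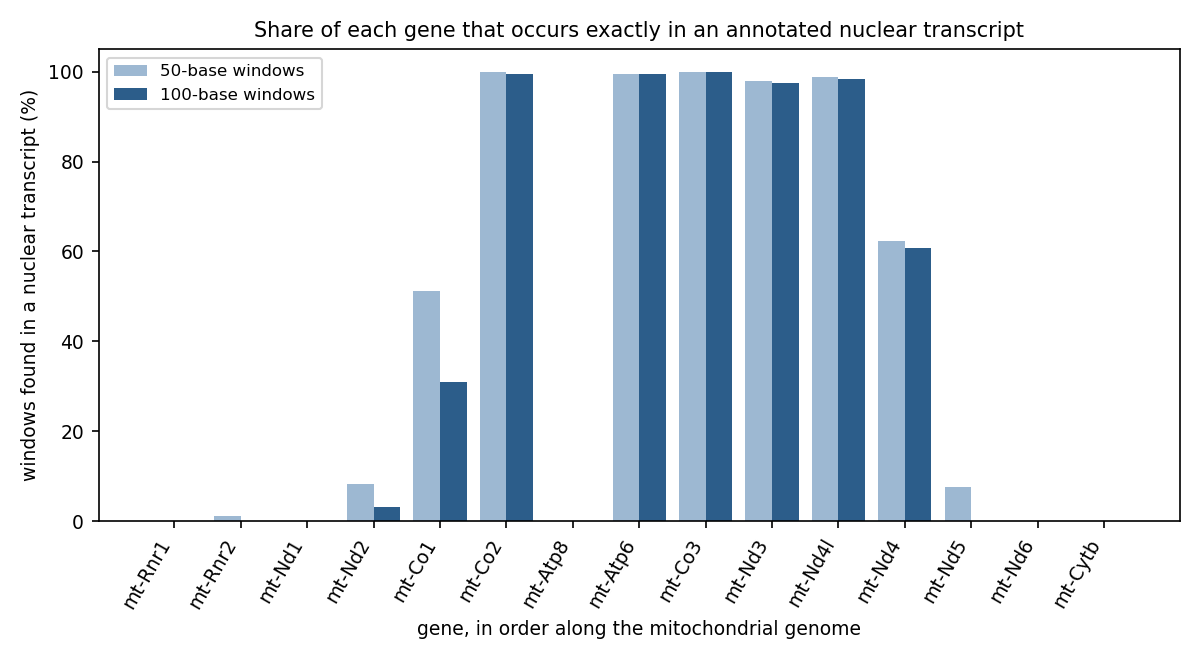
Percent of the 50-base (light) and 100-base (dark) windows of each mitochondrial protein and rRNA gene that occur exactly in an annotated nuclear transcript. The 100-base share is 97.6% or more from mt-Co2 to mt-Nd4l except in mt-Atp8, 60.8% in mt-Nd4, 30.8% in mt-Co1, 3.19% in mt-Nd2 and 0% elsewhere.

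The 6 protein genes inside the copied stretch were nearly empty in the counts. The genes mt-Atp6 and mt-Atp8, both subunits of ATP synthase (complex V), and mt-Nd4l, a subunit of complex I, had no count in any library. Over library depth, 3 counts would be at most 0.438 TPM for mt-Atp6, 1.46 TPM for mt-Atp8 and 1.01 TPM for mt-Nd4l, a floor that covers counting error of uniquely placed pairs only. The cytochrome c oxidase (complex IV) gene mt-Co2 had 0, 8, 0 and 1 counts in replicates 1 to 4, and mt-Co3, of the same complex, had 0, 0, 3 and 0. The complex I gene mt-Nd3 had 50, 58, 76 and 63 counts, the only 1 of the 6 with counts in every library. Together the 6 held 50, 66, 79 and 64 counts. Mitochondrial mt-Atp8 and mt-Atp6 also share 43 and 44 of their own bases with another gene on the same strand, and mt-Nd4l and mt-Nd4 share 7 with each other. By default a read pair that overlaps both genes with equally many of its reads goes to neither gene. How much of these low counts comes from pairs left uncounted was not tested, and the 6 values are not read here as levels of the 6 mRNAs.

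The chromosome 1 pseudogenes had few counts as well. Their own counts summed to 59, 102, 113 and 45 in replicates 1 to 4. Of the nuclear copies, Gm28661, Gm10925, Gm28437, Gm28439 and Gm29216 on chromosome 1 and Gm13340 and Gm13341 on chromosome 2 had a count in every library. The highest were Gm13341 at 2.89 ± 1.98 TPM (SD, n = 4), Gm13340 at 2.83 ± 0.239 TPM and Gm29216 at 1.84 ± 0.410 TPM. The lowest of 9 such pseudogenes listed were Gm28438 at 0.125 TPM and Gm10222 at 0.0288 TPM, the copies of mt-Nd3 and mt-Nd4l. Counts of these pseudogenes and of the genes they copy are uncertain, since a few mismatches decide where a pair is placed.

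As a share of all counts, the mitochondrial genome held 1.00%, 0.962%, 0.985% and 1.08% in replicates 1 to 4. Replicate 4 was highest and replicate 2 lowest. Protein genes made up nearly all of it, at 0.951%, 0.905%, 0.929% and 1.01% of counts, or 94.2 ± 0.551% of the mitochondrial counts (SD, n = 4). The rRNAs held 0.0498%, 0.0563%, 0.0557% and 0.0679% of all counts, or 5.70 ± 0.552% of the mitochondrial counts. The tRNAs held 0.000843%, 0.000639%, 0.000590% and 0.000894%, or 0.0734 ± 0.0121% of the mitochondrial counts. A count in every library was found for 8 of 13 protein genes, both rRNAs and 7 of 22 tRNAs, and no count at all for 3, 0 and 8 of them. In TPM, which divides each count by the gene's exon length, the genome held 2.46 ± 0.122%. Under the featureCounts default, pairs that align equally well to a nuclear copy would be missing from all of these shares, which was not checked.

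The 6 protein genes that lie at least partly outside the copied stretch and are transcribed in the main direction carried 94.8%, 94.0%, 94.2% and 93.5% of the mitochondrial counts. Their strand is written plus in the files and is read from the template called the heavy strand. The highest was mt-Co1 (chrM:5328-6872), which encodes the catalytic subunit of cytochrome c oxidase. It stood at 9541, 10056, 9932 and 10972 TPM in replicates 1 to 4, a mean of 10126 ± 606 TPM. It ranked between 3 and 5 of all 50600 genes in each library and held 48.0 ± 1.18% of the mitochondrial counts. Replicate 1 was its lowest library and replicate 4 its highest. Complex III has a single mitochondrial subunit, cytochrome b, whose gene mt-Cytb (chrM:14145-15288) stood at 4379, 3929, 3979 and 4138 TPM. Here replicate 1 was the highest library and replicate 2 the lowest.

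The remaining 4 of these genes encode membrane subunits of complex I, the NADH dehydrogenase that starts the chain. The gene mt-Nd1 (chrM:2751-3707) stood at 3793, 3624, 3554 and 3938 TPM. The gene mt-Nd2 (chrM:3914-4951) stood at 1977, 1766, 1737 and 2005 TPM. The gene mt-Nd5 (chrM:11742-13565) stood at 1742, 1607, 1714 and 1872 TPM. In these 3 genes replicate 4 was the highest library, and replicates 2 and 3 held the lowest values. The gene mt-Nd4 (chrM:10167-11544) stood at 1160.2, 1149, 1196 and 1278 TPM, again highest in replicate 4.

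In every library the order was mt-Co1, mt-Cytb, mt-Nd1, mt-Nd2, mt-Nd5, mt-Nd4, mt-Rnr2, mt-Rnr1, mt-Nd6 and mt-Nd3, from high to low. Across libraries the ranges of mt-Cytb and mt-Nd1 overlapped, as did those of mt-Nd2 and mt-Nd5 and those of mt-Rnr2 and mt-Rnr1. The other neighbours down to mt-Co2 did not overlap. Part of this order depends on the length over which counts are spread. When counts were spread only over 100-base windows not shared with a nuclear transcript, an alternative chosen after seeing the data, mt-Nd4 rose from 1196 ± 58.6 to 3047 ± 149 TPM. It then lay above mt-Nd2 (1933 ± 144 TPM) and mt-Nd5 (1734 ± 109 TPM). By the same step mt-Co1 reached 14641 ± 876 TPM and stayed first.

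**Figure D2:**
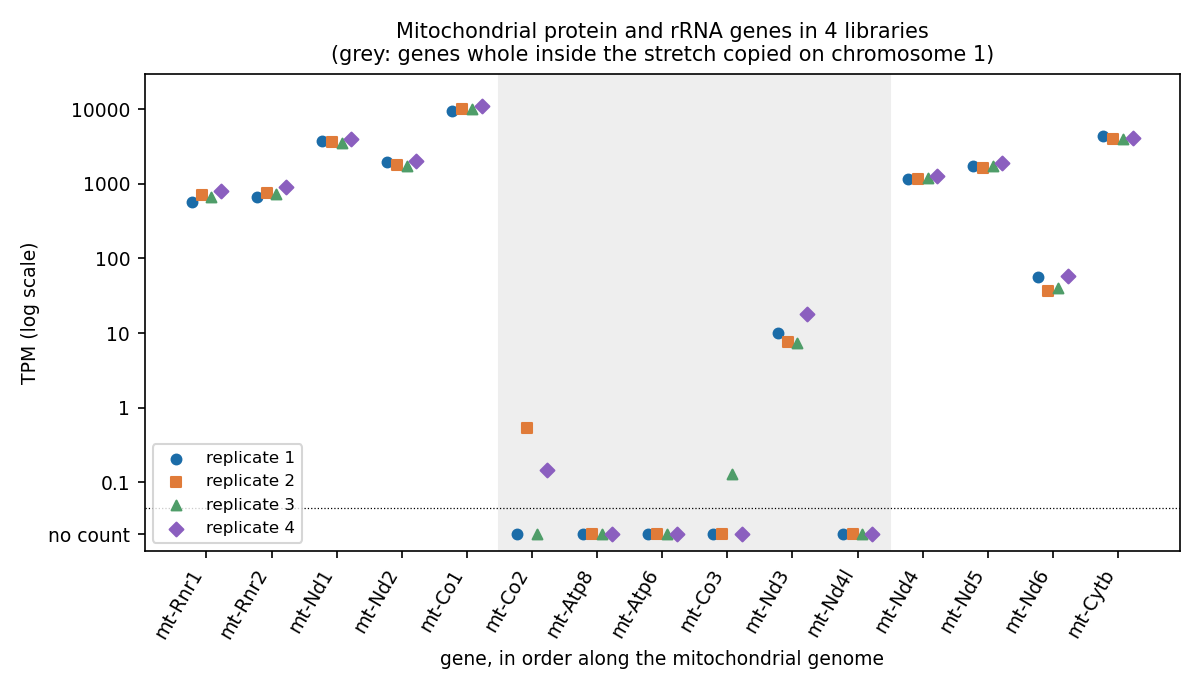
TPM (log scale) of the 13 mitochondrial protein genes and 2 rRNA genes in each of 4 libraries, in genome order, with genes at no count on the lowest line and the 6 genes whole inside the copied stretch shaded. Genes outside the shading sit between 36.5 and 10972 TPM, while inside it mt-Nd3 alone has counts in every library, at 7.40 to 18.02 TPM.

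Only mt-Nd6 among the protein genes (chrM:13552-14070) is encoded on the other strand, written minus in the files and read from the light strand. This complex I subunit gene had 423, 414, 616 and 300 counts, or 56.3, 36.5, 40.2 and 57.5 TPM. Replicates 1 and 4 lay above replicates 2 and 3. None of its 100-base windows was shared with a nuclear transcript, and its level was the lowest of the 7 protein genes outside the copied stretch in each library. The median of the 12 plus-strand protein genes exceeded mt-Nd6 by 1.27 ± 0.21 on the log2(TPM + 1) scale (SD, n = 4), in 4 of 4 libraries. That median lies midway between mt-Nd4 and mt-Nd3, and mt-Nd3 is inside the copied stretch. Leaving out the 6 genes inside the copied stretch, which was decided after the data were seen, gave 5.79 ± 0.25. The exact sign-flip permutation test (two-sided) returned p = 0.125 for both, the smallest that 4 libraries allow. Benjamini-Hochberg adjustment over all such contrasts, 8 with all genes and 7 without the 6, left it at 0.125. In CPM, without length correction, the difference with all genes was 1.95 ± 0.20.

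The rRNAs followed a common pattern across libraries. The 12S rRNA gene mt-Rnr1 (chrM:70-1024), for the small ribosomal subunit, stood at 566, 698, 669.7 and 806 TPM. The 16S rRNA gene mt-Rnr2 (chrM:1094-2675), for the large subunit, stood at 660.1, 752, 729 and 908 TPM. Both were lowest in replicate 1 and highest in replicate 4. Their difference, mt-Rnr2 minus mt-Rnr1, was 0.16 ± 0.05 (log2), positive throughout the 4 libraries (p = 0.125, exact sign-flip permutation). In CPM it was 0.88 ± 0.05, as mt-Rnr2 is the longer gene. Relative to 100 counts of mitochondrial protein genes the rRNAs held 5.24, 6.21, 5.99 and 6.74 counts. Gm42418 was highest in the library where these rRNAs were lowest, and its part was not tested. With that locus and other rRNA genes taken out of the denominator the mitochondrial rRNA share was 0.0576%, against 0.0574% with them.

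Set against the mRNAs, the direction of the rRNA difference depended on the genes inside the copied stretch. With all 13 protein genes, whose median is the value of mt-Nd6, the rRNAs lay 3.91 ± 0.37 (log2) above the mRNAs, and 5.01 ± 0.34 in CPM. Without the 6 genes inside the stretch the rRNAs lay below the mRNAs, at -1.38 ± 0.21, and over unshared 100-base windows at -2.08 ± 0.15. Each sign held throughout the 4 libraries (p = 0.125, exact sign-flip permutation). The part of poly(A) selection in the levels of the rRNAs, the tRNAs and the mRNAs, mt-Nd6 among them, was not tested.

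The tRNA genes had few counts, and 5 of 22 held 91.5%, 79.6%, 89.6% and 90.4% of the tRNA counts in replicates 1 to 4. As CPM, counts scaled to a common library total, mt-Tw, the tRNA for tryptophan, measured 2.48, 2.18, 1.64 and 2.88. The leucine tRNA mt-Tl1 measured 2.67, 1.65, 1.82 and 2.54 CPM. Replicates 1 and 4 were the highest libraries for mt-Tl1 and mt-Tw. The threonine tRNA mt-Tt measured 1.09, 0.859, 0.642 and 0.980 CPM. The proline tRNA mt-Tp, encoded on the minus strand beside it, measured 0.869, 0.236, 0.811 and 1.07 CPM, with replicate 2 apart from the other libraries. The glutamine tRNA mt-Tq measured 0.608, 0.166, 0.368 and 0.613 CPM. Another 9 tRNAs had counts, at most 44 in any library.

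No count was found for 8 tRNAs: mt-Tf, mt-Ts1, mt-Td, mt-Tk, mt-Tr, mt-Th, mt-Ts2 and mt-Tl2. Of the 5 tRNAs inside the copied stretch 4 had no count, and of the 17 outside it 4 had none. No 50-base window of any tRNA occurred in an annotated nuclear transcript. Whether chromosome 1 copies the 5 tRNAs between its pseudogenes was not checked. At these depths 3 counts are 0.0652, 0.0416, 0.0316 and 0.0919 CPM in replicates 1 to 4. The 14 plus-strand tRNAs summed to 302, 413, 436 and 231 counts and the 8 minus-strand tRNAs to 86, 48, 124 and 61. Pairs of reads longer than these genes extend beyond them. By default a pair that overlaps 2 genes with equally many of its reads is not counted. The gene mt-Tl1 touches mt-Rnr2 and mt-Nd1 with no base between. Other tRNAs have free bases before the next gene on their strand: 311 on the right of mt-Tw, 1175 on the right of mt-Tq and 1216 on the left of mt-Tp. To the right of mt-Tt no such gene follows. Without a count, mt-Ts1 has gaps of 1543 and 6613 bases. How these gaps bear on the counts was not tested. Reads of precursors and of mature tRNAs cannot be told apart in these counts. The sequences of the 4 highest tRNAs and of 2 without a count inside the copied stretch are given because each is shorter than 100 bases, so a fragment longer than the tRNA must reach beyond it.
mt-Tw, chrM:4950-5016, plus strand: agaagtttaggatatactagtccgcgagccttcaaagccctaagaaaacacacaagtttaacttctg
mt-Tl1, chrM:2676-2750, plus strand: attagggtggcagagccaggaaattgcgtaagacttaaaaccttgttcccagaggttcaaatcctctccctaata
mt-Tt, chrM:15289-15355, plus strand: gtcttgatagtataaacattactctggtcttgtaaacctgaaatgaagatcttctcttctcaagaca
mt-Tp, chrM:15356-15422, minus strand: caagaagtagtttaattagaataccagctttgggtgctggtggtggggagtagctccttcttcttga
mt-Td, chrM:6942-7011, plus strand: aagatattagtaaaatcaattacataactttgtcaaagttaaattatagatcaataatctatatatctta
mt-Tk, chrM:7700-7764, plus strand: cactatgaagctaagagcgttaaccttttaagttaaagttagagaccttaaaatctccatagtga

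**Figure D3:**
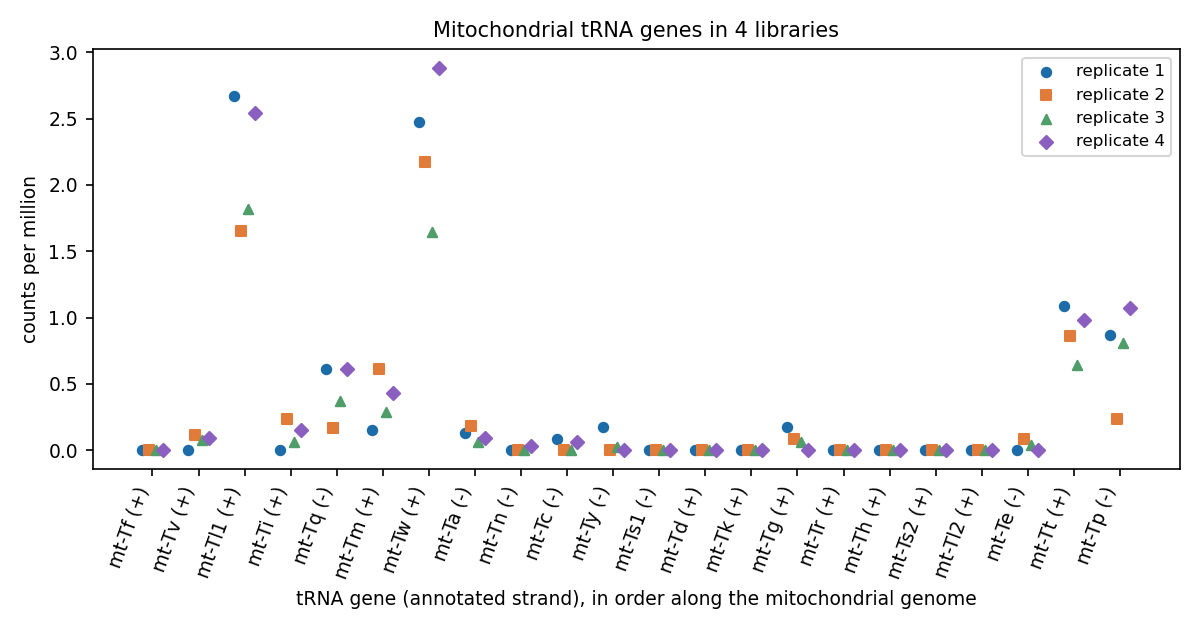
CPM of the 22 mitochondrial tRNA genes in each of 4 libraries, in genome order with the annotated strand. The tRNAs mt-Tw and mt-Tl1 reach 1.64 CPM or more in every library, and 8 tRNAs lie at 0 in all 4.

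The mitochondrial mRNAs were then compared with the nuclear genes for subunits of the same complexes. All 73 nuclear subunits listed reached 1 TPM in every library. In complex I the 36 nuclear subunits had a median of 142 TPM, with Ndufa2 (395 TPM) and Ndufa8 (332 TPM) among the highest. Ndufab1 (18.8 TPM) and Ndufb4 (10.4 TPM) were the lowest. The 7 mitochondrial subunits of complex I lay above them by 3.08 ± 0.07 (log2 difference of medians, SD, n = 4), with mt-Nd4l, mt-Nd3 and mt-Nd6 below the nuclear median. With means in place of medians this difference was 0.62 ± 0.13, still above 0 in 4 of 4 libraries. Without mt-Nd3 and mt-Nd4l, which lie inside the copied stretch, the difference of medians was 3.62 ± 0.05. That choice was made after the data were seen. In complex III the 9 nuclear subunits had a median of 300 TPM, from Cyc1 (610 TPM), Uqcr10 (590 TPM) and Uqcrfs1 (473 TPM) down to Uqcrq (160 TPM) and Uqcrb (126 TPM). The single mitochondrial gene, mt-Cytb, lay 3.71 ± 0.09 (log2) above that median. Both differences were positive throughout the 4 libraries (p = 0.125, exact sign-flip permutation).

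In complexes IV and V the comparison turned on genes inside the copied stretch. The 11 nuclear subunits of complex IV had a median of 287 TPM, with Cox8a (1425 TPM), Cox6a1 (995 TPM) and Cox4i1 (666 TPM) highest and Cox7c (129 TPM) and Cox6c (121 TPM) lowest. The median of the 3 mitochondrial subunits, which is the near-empty mt-Co2 or mt-Co3, differed from it by -7.94 ± 0.26 on the log2 scale. This value depends on the measure: it was -3.998 with means, -7.01 in CPM and -10.2 with a pseudocount of 0.1. Without the genes inside the stretch mt-Co1 alone remained, and the difference was 5.11 ± 0.03, above 0 in 4 of 4 libraries. The 17 nuclear subunits of complex V had a median of 202 TPM, from Atp5b (1494 TPM), Atp5a1 (1274 TPM) and Atp5d (744 TPM) down to Atp5g1 (59.7 TPM) and Atp5l (5.22 TPM). Both mitochondrial subunits, mt-Atp6 and mt-Atp8, had no count, so no comparison of complex V could be made from these data.

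Over all complexes the same held. The median of the 13 mitochondrial mRNAs differed from that of the 73 nuclear subunits by -2.05 ± 0.30 (log2), below 0 in 4 of 4 libraries, and by -3.42 ± 0.25 in CPM. For the 7 genes outside the copied stretch the difference was 3.24 ± 0.12, above 0 in 4 of 4 libraries, and over unshared 100-base windows it was 3.94 ± 0.04. The exact sign-flip permutation p was 0.125 in each case. These are differences between genes within a library and carry differences in how each transcript is captured and counted.

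**Figure D4:**
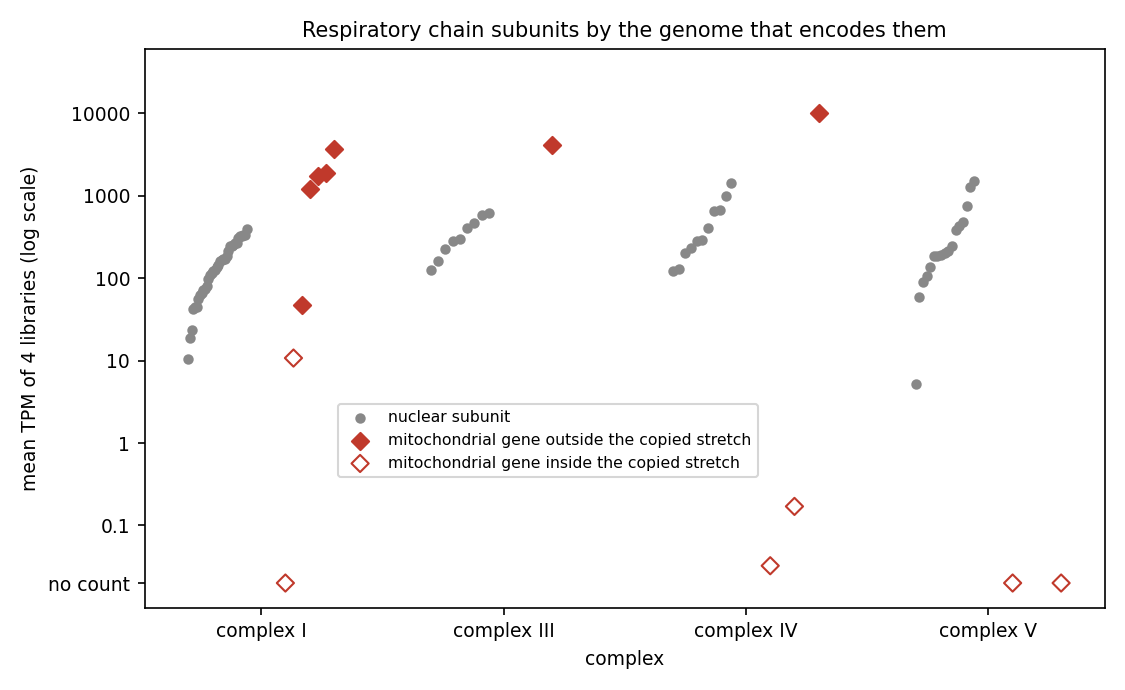
Mean TPM over 4 libraries (log scale) of nuclear subunits (grey points) and mitochondrial subunits (red diamonds, open for genes inside the copied stretch) of complexes I, III, IV and V. In complexes III and IV, mt-Cytb at 4106 TPM and mt-Co1 at 10126 TPM lie above every nuclear subunit, and all open diamonds lie at 10.7 TPM or lower.

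The second question was whether mitochondrial genes varied between the libraries more than genes of the same abundance. Of the 37 genes, 14 passed the filter on low counts: 8 protein genes, both rRNAs and the tRNAs mt-Tl1, mt-Tw, mt-Tt and mt-Tp. None of the 14 (0 genes) was called by the goodness-of-fit test of edgeR at an adjusted p under 0.05, against 0.378% of all 13478 genes tested (51 genes). At an unadjusted p under 0.05 there was 1 of 14, mt-Rnr1, against 5.97% of all genes. For mt-Rnr1 the range between libraries was 0.47 (log2), with an edgeR p of 0.0150 and an adjusted p of 0.556. By DESeq2's dispersion outliers 0 of 14 were called, beside 48 of all 13478 genes tested. With the common dispersion in place of the trend 2 were called, mt-Nd3 and mt-Tp, beside 931 of all genes.

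The 6 plus-strand mRNAs with high counts differed little between libraries. For this comparison CPM was scaled by TMM, edgeR's correction of library totals. Their ranges between libraries ran from 0.16 (mt-Nd1) to 0.26 (mt-Nd5) on the log2 scale, with a median of 0.22. The median was 0.31 over all genes tested, which include genes with far fewer counts, and 0.25 over the 73 nuclear subunits. Small ranges were thus not particular to the 6 mRNAs. The median deviations of the 6 mRNAs from the gene mean were 0.05, -0.11, -0.02 and 0.09 in replicates 1 to 4. On this scale replicate 2 was the lowest library for 6 of 6, against 28.9% of all genes tested, and replicate 4 the highest for 4 of 6, against 20.6%. For mt-Co1 the gap between replicates 1 and 2 was small (-0.050 and -0.055), and in CPM without TMM replicate 2 was lowest for 5 of 6. In TPM the lowest library was replicate 1 for mt-Co1 and replicate 3 for mt-Nd1 and mt-Nd2, so the pattern depends on the scale. On the TMM scale the 73 nuclear subunits were also lowest in replicate 2, in 54 of 73 cases, with median deviations of 0.01, -0.12, 0.04 and 0.05. None of these 73 was called (edgeR goodness of fit), against 0.378% of all genes tested. An unadjusted p under 0.05 was found for 6 of 73, against 5.97% of all genes tested. These counts describe the libraries and were not tested as lists. In bulk libraries, fewer cells of a type and less RNA per cell cannot be told apart.

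The other tested genes spread more widely. The range was 0.70 (log2) for mt-Nd6, with 0.30 and 0.29 in replicates 1 and 4 and -0.40 and -0.20 in replicates 2 and 3 (edgeR, adjusted p = 0.942). It was 0.71 for mt-Tl1, 0.79 for mt-Tw and 0.73 for mt-Tt. It was 1.25 for mt-Nd3, where replicate 4 stood apart at 0.82. The largest was 2.06, for mt-Tp, at -1.38 in replicate 2 and between 0.30 and 0.68 in the others (edgeR, adjusted p = 0.843). The plot of deviations by library sets the rRNAs, lowest in replicate 1, beside the mRNAs, lowest in replicate 2 on the TMM scale.

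**Figure D5:**
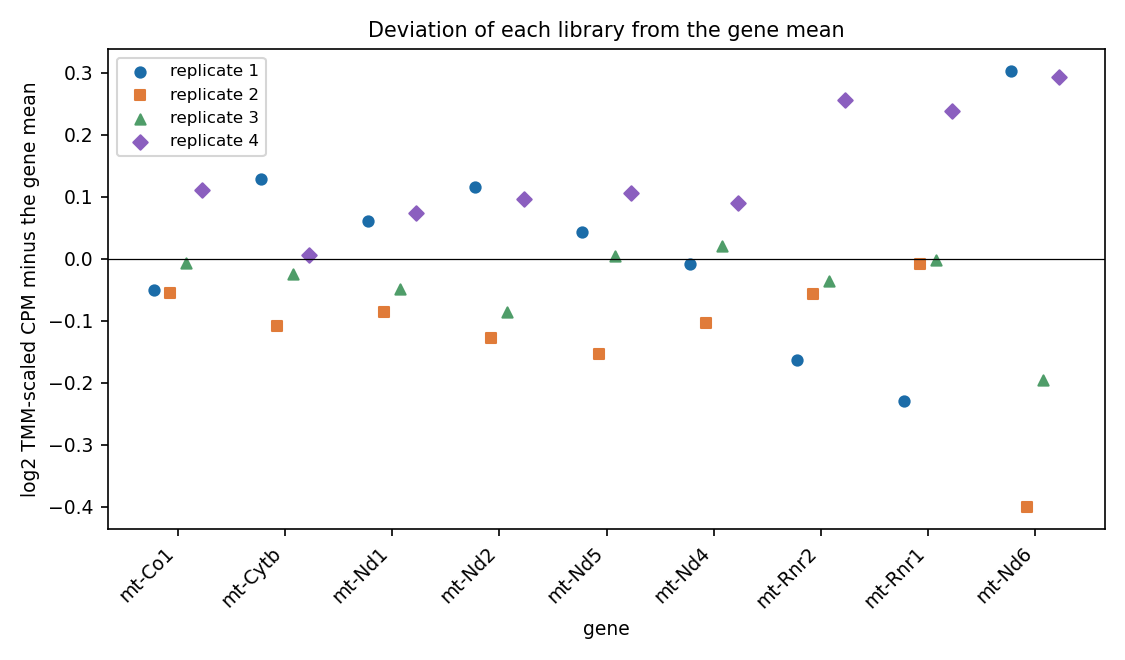
Deviation of log2 CPM, scaled by TMM, from the gene mean in each of 4 libraries, for the 6 plus-strand mRNAs with high counts, the 2 rRNAs and mt-Nd6. Replicate 2 is lowest for all 6 mRNAs and for mt-Nd6, replicate 1 is lowest for both rRNAs, and no gene shown was called by the goodness-of-fit test.

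Nuclear genes that copy, cut, modify and translate mitochondrial RNA were all present: 64 of 64 reached 1 TPM in every library. Of 14 genes for mitochondrial transcription and DNA replication, the DNA polymerase Polg (66.8 TPM), Rnaseh1 (48.4 TPM) and the helicase Twnk (43.4 TPM) were highest and Polg2 (10.7 TPM) and Mterf1a (3.69 TPM) lowest. Of 17 genes for RNA processing and decay, the oligoribonuclease Rexo2 (166 TPM), the RNase P subunit Hsd17b10 (146 TPM) and Tbrg4 (113 TPM) were highest and Fastkd5 (9.56 TPM) and Fastkd1 (6.57 TPM) lowest. Of 16 genes for tRNA and rRNA modification, the pseudouridine synthase Pus1 (129 TPM), Trmt5 (43.6 TPM) and the CCA-adding enzyme Trnt1 (35.5 TPM) were highest and Nsun3 (7.75 TPM) and Trmt61b (6.05 TPM) lowest. Of 17 aminoacyl-tRNA synthetases, which load amino acids onto the tRNAs, Lars2 (260 ± 114 TPM), Iars2 (61.3 TPM) and Tars2 (60.9 TPM) were highest and Nars2 (8.32 TPM) and Wars2 (6.87 TPM) lowest. Of the 64 genes 1, Lars2, was called for variation, against 0.378% of all genes, and 3 had an unadjusted p under 0.05, against 5.97%. Lars2 was called (edgeR goodness of fit, adjusted p = 8.70e-10), with a deviation of 0.83 in replicate 1 and -0.57 in replicate 4 (log2). It stood at 422, 254, 198 and 165 TPM in replicates 1 to 4, the same order as Gm42418, whose part was not tested.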

How the data were processed

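The authors deposited raw counts of read pairs per gene, per the file headers counted by featureCounts 1.4.6-p4 on STAR output with the GENCODE M13 annotation, paired counting with both ends mapped and strand setting 2. The labels name mm10. For alignment settings, nothing is given in the sources used here. CPM and TPM were computed from these counts with the exon lengths of the files. Members were all genes with chromosome chrM. The members and all gene lists were chosen with earlier results of these data known. Names came from GENCODE M21, which matched 50376 of 50600 identifiers; shared windows were found in its transcripts.

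The test of variation used edgeR 4.0.16 under R 4.3.3: filterByExpr (minimum count 10), TMM, 1 mean per gene at the trended dispersion, and gof, upper tail, with Benjamini-Hochberg adjustment over 13478 genes. The code was tested on simulated data. DESeq2 1.42.0 was an alternative. Contrasts were differences of medians of log2(TPM + 1) within a library, tested by sign flips over libraries. Deviations are TMM-scaled log2 CPM with a prior count of 2.

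Named were all protein and rRNA genes, the 5 highest and the lowest tRNAs by mean CPM (8 tied at 0), the 3 highest and 2 lowest of each nuclear list, genes called for variation, and nuclear copies with a count in every library; 1 gene is not reported here. The other alternatives were CPM, another pseudocount, means, other filters and scalings, and leaving out members or libraries.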

Additional observations from a re-analysis of the deposited data

Results flagged for a closer look

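The values examined were the levels of genes named above, the class shares and the contrasts. Xist, Ddx3y, Gm42418, Adgre1 and the pseudogenes Gm28438 and Gm10222, though named, were not examined. In 6 of the 81 values examined, Dixon's criterion set 1 library apart from the other 3, and chance alone picks out about 1 in 20. Among the mitochondrial genes this was mt-Co3, at 0.130 TPM (3 counts) in replicate 3 and with no count in the others; with the others tied at 0, any count there would have been picked out. Among the nuclear respiratory chain subunits, Cox4i1 was lowest in replicate 2, at 610.6 TPM, and Cox7c was highest in replicate 1, at 144.6 TPM. Among the nuclear genes that serve mitochondrial nucleic acids, Polg was highest in replicate 1 at 73.3 TPM, Rexo2 in replicate 2 at 186.8 TPM and Trmt61b in replicate 4 at 8.45 TPM. None of the 6 was called for variation by edgeR's goodness-of-fit test, for which mt-Co3 had too few counts.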

How the results depend on the processing

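The contrasts that reversed did so in settings that left out genes near 0, and a setting among these also left out mt-Nd6 and mt-Nd4. Their direction thus depends on which genes enter the median, among them genes with few or no counts. The difference of mitochondrial mRNAs from nuclear subunits turned from -2.05 to 3.24 without the 6 genes inside the copied stretch, to 3.94 and 4.00 over unshared windows of 100 and 50 bases, to 3.18 with members under 1 TPM left out and to 3.18 without mt-Nd6, mt-Atp8, mt-Atp6, mt-Nd4l and mt-Nd4. The complex IV difference turned from -7.94 to 5.11, 5.65 and 6.15 in the first 3 of these and to 5.11 with members under 1 TPM left out. The rRNA difference from the mRNAs turned from 3.91 to -1.38, -2.08 and -2.13 in the first 3. No other contrast changed sign under any alternative run. Complex V had no value without its 2 uncounted genes. As shares of TPM, the 37 genes held 2.46%, protein genes 2.28%, rRNAs 0.145% and tRNAs 0.0345%. Leaving out 1 library in turn moved the count of all genes called for variation from 51 to between 17 (without replicate 1) and 56 (without replicate 2), with 23 without replicate 3 and 33 without replicate 4; mitochondrial genes called stayed at 0. Common dispersion called 931 genes, 2 of them mitochondrial, and no filter called 38 and 0. Leaving out genes under 200 bp gives no tRNA value, since all tRNAs are shorter. The alternatives over the nuclear genome were not run. No paired analysis was possible because there is only 1 group. Few counts limit the tRNAs, mt-Nd6 and the genes inside the copied stretch, and 4 libraries allow no sign-flip p under 0.125.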
